A study of Mus musculus with 6 samples.

Results

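Expression of 6 mouse genes was followed across premalignant B cells and B cell lymphomas of Eµ-Myc mice. Each gene belongs to the cytosine deaminase family or encodes an enzyme that removes damaged bases from DNA. The Myc transgene of these mice is under the control of an immunoglobulin heavy chain enhancer and is active in the B lineage. The genes were the deaminase family members Apobec1, Apobec2 and Apobec3 and the DNA glycosylases Ung, Smug1 and Neil1. They were taken by symbol from the platform annotation of the array, and all 6 were found among 19938 genes. Signals were measured on 6 Affymetrix Mouse Gene 1.0 ST arrays in 3 groups of 2. The premalignant group held sorted splenic B cells that carry the Eµ-Myc transgene and no hairpin, from 2 independent preparations. Their characteristics name them normal B cells and controls, while titles and source name a premalignant Eµ-Myc origin. The other groups held Eµ-Myc lymphomas generated with a short hairpin RNA against Ezh2, shEzh2.781 or shEzh2.556, which were positive for B220 and GFP in at least 95% of cells after CD43 bead depletion. All 6 arrays thus share the Myc transgene. Lymphomas free of a hairpin were not analysed here, so malignancy, hairpin and cell preparation cannot be told apart in the comparisons with premalignant cells. The sources used here give no strain or age and do not state that both arrays of 1 hairpin are from different animals, so p-values measure the spread between these arrays, which may be partly technical.

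The cytosine deaminases of this family convert cytosine to uracil in DNA or RNA. In activated B cells, uracil in the DNA of immunoglobulin genes is removed by the glycosylase UNG or recognised by mismatch repair, which opens the way to somatic hypermutation and class switching. Elsewhere in the genome the same glycosylases start base excision repair, in which the base is cut out, the strand is nicked by the endonuclease APEX1, and a polymerase and ligase close the gap. Members of the family edit messenger RNA or restrict retroviruses.

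Differences are given in log2 units of the deposited signal with the standard error (SE) of a limma fit over all arrays, and a gene passed the test at a Benjamini-Hochberg adjusted p below 0.05 over all 19938 genes. Ezh2, the target of the hairpins, was 2.92-fold lower in lymphomas (limma adjusted p = 1.31e-06), and 4 of 4 lymphoma arrays lay below both premalignant arrays. Of 9 listed B-lineage markers 8 were measured, among them Cd79a, Ms4a1 and Pax5, and all 8 were above the upper quartile of signals on every array. Of these 8, Pax5 (-0.44), Ebf1 (-0.49) and Blnk (-0.48) fell and Cd22 rose (0.55) in lymphomas. Array medians lay between 6.75 and 6.91. Subtracting them moved the median difference of all genes from -0.03 to 0.09 for shEzh2.781 and from -0.07 to 0.04 for shEzh2.781 against shEzh2.556. It also turned the split of passing genes from 1117 higher and 1916 lower to 1682 and 1530 for all lymphomas, from 917 and 1244 to 1733 and 841 for shEzh2.781, and from 1097 and 903 to 2242 and 453 between hairpins.

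Of the 6 genes, Apobec2 rose and Apobec1, Apobec3 and Neil1 fell in lymphomas against premalignant cells, while Ung and Smug1 did not pass. This is 4 of 6 passing, 1 higher and 3 lower, where 15.2% of all genes passed, 5.60% higher and 9.61% lower. The same 4 had lymphoma and premalignant arrays that did not overlap, which held for 28.8% of all genes (12.7% higher and 16.1% lower). The median difference of the 6 was -0.28, against 0.03 over all genes, which is also the value to set beside the list medians given later. Against premalignant cells 5 of 6 passed with shEzh2.781 (2 higher and 3 lower, where 10.8% of all genes passed, 4.60% higher and 6.24% lower) and 4 of 6 with shEzh2.556 (1 higher and 3 lower, where 18.2% of all genes passed, 6.80% higher and 11.4% lower). These comparisons share the premalignant arrays. Between hairpins, Ung and Neil1 passed, both higher with shEzh2.781 (2 of 6, where 10.0% of all genes passed, 5.50% higher and 4.53% lower). The shares of each comparison are also those to set beside the counts of listed genes and markers in that comparison. With 2 arrays a group, a lack of overlap is common. It held for 50.7% of all genes with shEzh2.781 against premalignant cells, for 62.3% with shEzh2.556 and for 65.2% between hairpins.

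**Figure D1:**
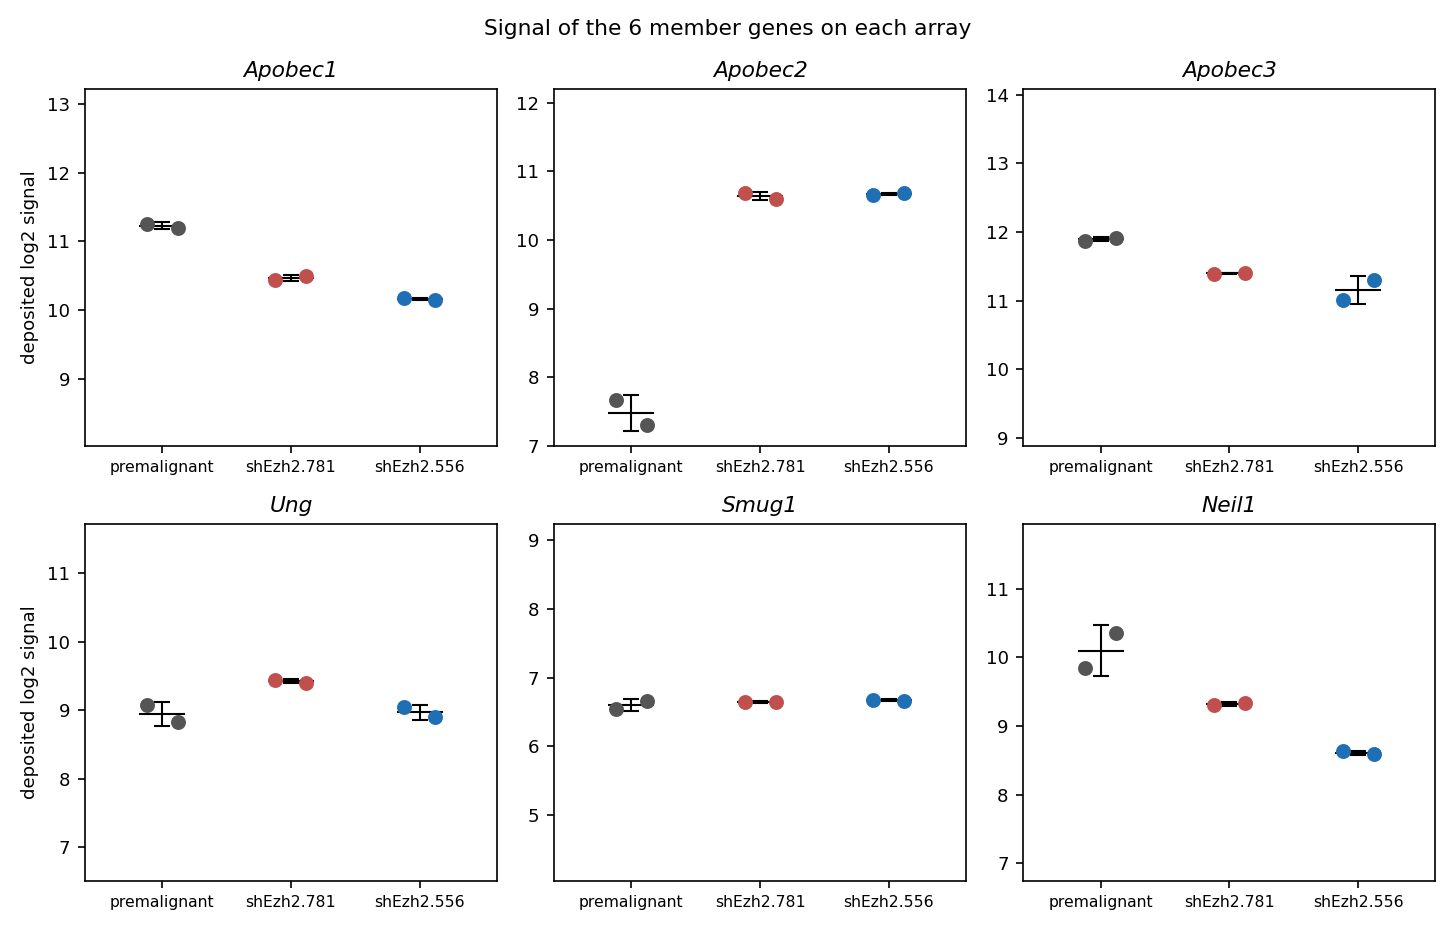
Deposited log2 signal of the 6 genes on each array; points are arrays, and bars give the mean and SD of the 2 arrays of a group. Each panel spans the same number of log2 units. Apobec2 sits at 10.60 to 10.68 on the 4 lymphoma arrays and at 7.30 and 7.67 in premalignant cells, while Smug1 stays between 6.54 and 6.68.

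Apobec2 is a deaminase relative known from skeletal and heart muscle, for which no substrate is firmly established. Its signal was 7.67 and 7.30 in premalignant cells, 10.68 and 10.60 in shEzh2.781 lymphomas, and 10.66 and 10.68 in shEzh2.556 lymphomas. All 4 lymphoma arrays were far above both premalignant arrays and close to one another, and the premalignant pair was the more spread (SD 0.26, n = 2, against 0.05 and 0.01). Apobec2 rose by 3.17 (SE 0.12, limma adjusted p = 1.18e-08), or 9.02-fold. In size this was the 11th largest rise of the 19938 genes. The rise was 3.16 with shEzh2.781 (adjusted p = 6.33e-08) and 3.19 with shEzh2.556 (adjusted p = 3.80e-08). Between hairpins the difference was -0.03, with a 95% interval from -0.32 to 0.26.

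The 300 bases around the Apobec2 start site are shown because it moved most of the 6. They span chr17:48432679-48432978 on the minus strand of GRCm38.p6, from 250 bases before to 50 after the RefSeq start. Capitals mark matches, on either strand and with overlaps allowed, to 7 motifs. Of the E-boxes, CACGTG is bound by MYC with MAX, while the E-box of E proteins and myogenic factors is CAGCTG. The core promoter element searched was TATAAA, known as the TATA box, and the element of SP factors was GGGCGG, known as the GC box. The E2F sites were TTTGGCGC and TTTCGCGC, and the interferon response core was taken as a pair of GAAA runs 2 bases apart.
Apobec2: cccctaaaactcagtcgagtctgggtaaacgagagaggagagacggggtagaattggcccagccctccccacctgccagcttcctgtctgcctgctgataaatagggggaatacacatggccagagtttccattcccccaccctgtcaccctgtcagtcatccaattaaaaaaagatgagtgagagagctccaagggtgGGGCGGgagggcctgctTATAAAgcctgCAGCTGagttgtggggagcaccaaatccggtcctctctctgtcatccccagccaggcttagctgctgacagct
Counting the start as base 1 and the base before it as -1, a GC box match lay at -51 to -46, a TATA box match at -34 to -29 and a CAGCTG match at -23 to -18. The letters TATAAA occurred in 13.6% of the 32851 promoters in the table, GGGCGG in 35.7% and CAGCTG in 16.3%. CACGTG, which 7.15% of promoters hold, was not in this window. The window held 5 CpG dinucleotides, where the median promoter held 7.0. No match says that a factor binds there.

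The genes whose signals over the 6 arrays were nearest to Apobec2, by the root mean square difference of gene-centred log2 values, were Nes (0.077), Cysltr1 (0.175) and Klhl41 (0.226), out of 17041 genes compared. Nes encodes the intermediate filament protein nestin, Cysltr1 a receptor for cysteinyl leukotrienes and Klhl41 a kelch protein of skeletal muscle. Nes was 6.61 and 6.22 in premalignant cells and 9.41 to 9.68 in lymphomas. Klhl41 was 6.30 and 6.05 and then at least 8.80 on every lymphoma array. Their likeness to Apobec2 follows from the way they were chosen and is a description only. Of 12 skeletal and heart muscle markers, among them Ckm, Acta1, Des and Myod1, 0 passed the limma test in lymphomas against premalignant cells, and 0 had an unadjusted p below 0.05. With either hairpin alone 0 passed, while 2 were higher with shEzh2.556 at an unadjusted p below 0.05. Between hairpins 1 passed, lower with shEzh2.781, and 5 were lower at an unadjusted p below 0.05. Their mean log2 level was 6.52 and 6.69 in premalignant cells, 6.63 and 6.46 with shEzh2.781 and 6.80 and 6.75 with shEzh2.556. None of Apobec2's chromosomal neighbours passed as higher. Among the 3 nearest measured genes on each side, chosen by position after the members' values were seen, Nfya differed by -0.46 (SE 0.10, adjusted p = 0.00796) and Tspo2 by -1.06 (SE 0.13, adjusted p = 0.000142), and Treml1, Oard1, Unc5cl and Lrfn2 lay between -0.35 and 0.28 without passing.

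**Figure D2:**
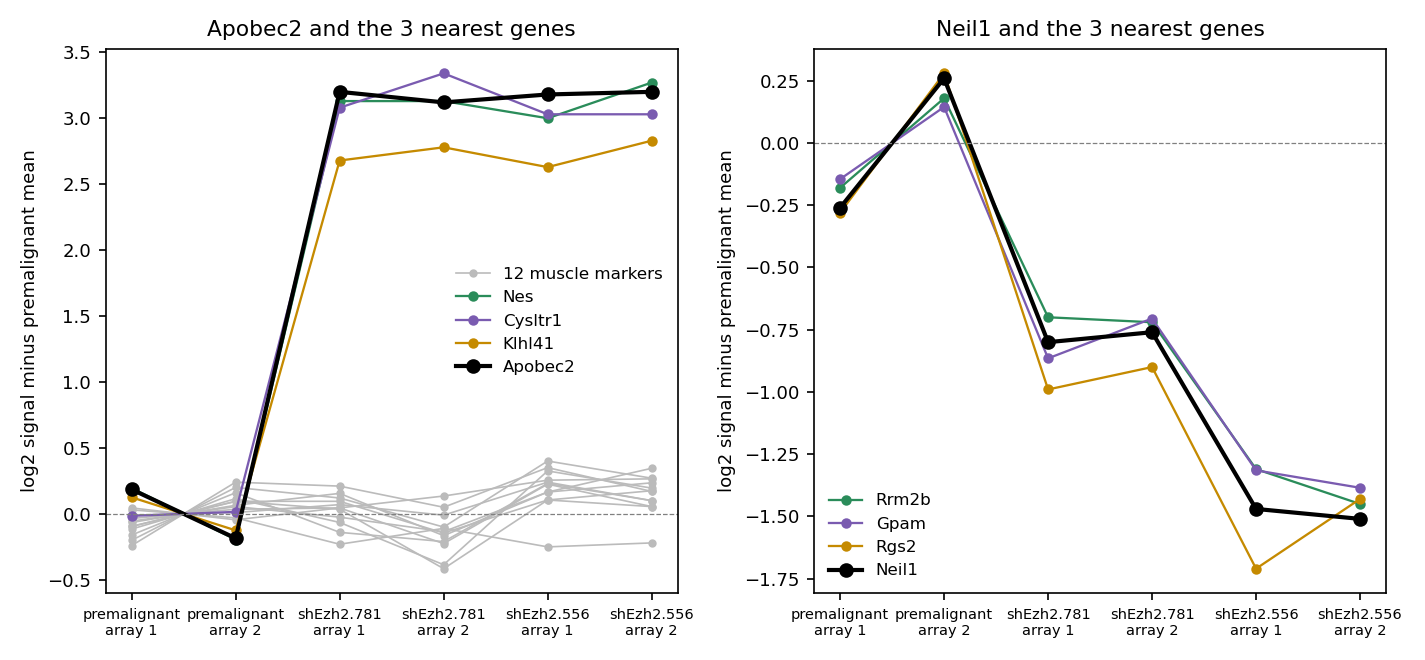
Log2 signal on each array minus the gene's premalignant mean, for Apobec2 with its 3 nearest genes and 12 muscle markers (left) and for Neil1 with its 3 nearest genes (right); lines only link the values of a gene. Nes, Cysltr1 and Klhl41 step up with Apobec2 while the muscle markers stay near 0, and Rrm2b, Gpam and Rgs2 are lower with shEzh2.781 and lower still with shEzh2.556, as Neil1 is.

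Apobec1, the enzyme that edits a cytosine of apolipoprotein B messenger RNA in intestine and liver, moved the other way. Its signal was 11.26 and 11.20 in premalignant cells, 10.44 and 10.49 with shEzh2.781 and 10.17 and 10.15 with shEzh2.556. The 3 groups did not overlap, and the order was premalignant, shEzh2.781, shEzh2.556. Apobec1 fell by 0.92 (SE 0.09, limma adjusted p = 4.45e-05), a 1.89-fold lower level. It fell by 0.76 with shEzh2.781 (adjusted p = 0.000756) and by 1.07 with shEzh2.556 (adjusted p = 3.82e-05). With shEzh2.781 it was 0.31 higher than with shEzh2.556 (SE 0.11, adjusted p = 0.0861), which did not pass. This difference passed with array medians subtracted (0.42, adjusted p = 0.027) and with a trended, robust variance prior (adjusted p = 0.0401).

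The Apobec1 window, printed with the same motifs in capitals because Apobec1 fell with either hairpin, spans chr6:122602395-122602694 on the minus strand.
Apobec1: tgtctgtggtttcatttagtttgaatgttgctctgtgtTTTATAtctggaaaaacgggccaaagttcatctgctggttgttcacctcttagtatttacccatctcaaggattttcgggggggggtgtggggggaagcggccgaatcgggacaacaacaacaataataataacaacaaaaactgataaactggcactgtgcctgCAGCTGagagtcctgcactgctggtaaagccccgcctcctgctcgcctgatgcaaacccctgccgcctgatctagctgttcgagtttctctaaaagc
It held a CAGCTG match at -47 to -42 and a TATAAA match, on the opposite strand, at -212 to -207, and 9 CpG dinucleotides.

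The nearest genes to Apobec1 in pattern were the corepressor gene Bcor (0.051), the MAX partner gene Mxd3 (0.057) and Tert, the catalytic subunit of telomerase (0.063). Bcor was 9.71 and 9.65 in premalignant cells and 8.55 to 8.92 in lymphomas. The RNA-binding cofactors that target Apobec1 did not pass. A1cf differed by 0.17 (SE 0.10, adjusted p = 0.296) at signals of 3.47 to 3.86, and Rbm47 by -0.30 (SE 0.12, adjusted p = 0.134). Of 10 intestine and liver markers, among them Apob, Alb and Vil1, 0 passed the limma test in lymphomas against premalignant cells and 0 had an unadjusted p below 0.05. Neutrophil markers moved in the same order as Apobec1. All 11 fell in lymphomas, and their mean log2 level was 9.12 and 9.37 in premalignant cells, 7.85 and 8.42 with shEzh2.781 and 6.85 and 6.34 with shEzh2.556. The mean level of the proliferation markers, given with Ung below, ran in the same order. The part of either set of markers in the Apobec1, Apobec3 and Neil1 differences was not tested. In such bulk samples, fewer cells of a type and less RNA per cell cannot be told apart. Macrophage and monocyte markers overlapped between groups in their mean levels (7.55 and 7.66, 7.47 and 7.65, and 7.81 and 7.42), with 2 of 9 higher and 0 lower by the limma test. Among markers of other blood cells, 5 of 7 for natural killer cells and 3 of 4 for platelets and megakaryocytes fell in lymphomas. Of 6 T cell markers 2 fell, namely Cd4 (-1.63) and Cd8a (-1.38). Cd3e (0.12), Cd3d (-0.13), Cd3g (-0.04) and Zap70 (-0.09) did not pass. Of 8 dendritic cell genes 3 fell, namely Siglech (-2.74), Itgax (-0.82) and Flt3 (-0.65), while 1, Xcr1, rose (0.52) and 4 did not pass. Erythroid markers ran in another order, as 5 of 6 fell with shEzh2.781 and 0 passed with shEzh2.556 (2 were lower at an unadjusted p below 0.05 by limma).

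Apobec3, the only mouse member of the subfamily that restricts retroviruses, also fell. Its brighter probe set gave 11.87 and 11.92 in premalignant cells, 11.39 and 11.41 with shEzh2.781 and 11.01 and 11.30 with shEzh2.556. All lymphoma arrays lay below both premalignant arrays, and the shEzh2.556 pair was the more spread. Apobec3 fell by 0.62 (SE 0.11, limma adjusted p = 0.00193), or 1.54-fold. The fall of 0.50 with shEzh2.781 (adjusted p = 0.0231) did not pass with array medians subtracted (adjusted p = 0.066), with all probe sets in the fit (adjusted p = 0.103), or without any 1 of the 4 premalignant and shEzh2.781 arrays (adjusted p = 0.0756 to 0.133). With shEzh2.556 it fell by 0.74 (adjusted p = 0.00146). A dimmer Apobec3 probe set gave 10.94 and 11.24 in premalignant cells, 10.00 and 9.85 with shEzh2.781 and 10.24 and 10.28 with shEzh2.556. It was lower in the lymphomas by 1.00 (SE 0.12, limma adjusted p = 0.00728 over 35512 probe sets). The probe sets differed on the order of the hairpins. The brighter one was 0.24 higher and the dimmer one 0.33 lower with shEzh2.781 than with shEzh2.556, and neither difference passed (adjusted p = 0.300 and 0.216 over all probe sets).

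Of 14 listed deaminases 12 were measured, 3 of them the genes above. Among the other 9, Adarb1, an adenosine deaminase that edits double-stranded RNA, rose by 0.87 (SE 0.10, adjusted p = 0.000107), from 8.50 and 8.31 to 9.18 to 9.39. Adat1, which deaminates adenosine in transfer RNA, rose by 0.41 (SE 0.11, adjusted p = 0.0278). The germ cell relative Apobec4 stayed dim, at 3.37 to 3.74, and differed by 0.27 (SE 0.10, adjusted p = 0.088). Over the 12, 3 rose and 2 fell, where 5.60% and 9.61% of all genes did, with a median difference of 0.15. Of 15 measured cofactors of the deaminases, 1 fell and 0 rose (0 had an unadjusted p below 0.05 in the direction of a rise), and the median was -0.06. The one that fell was Ptbp2, an RNA-binding protein, by 0.43 (SE 0.12, adjusted p = 0.0317). It did not pass without either premalignant array or the first shEzh2.556 array, nor with array medians subtracted.

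Ung, the main enzyme that removes uracil from DNA, was higher with 1 hairpin. Its signal was 9.07 and 8.83 in premalignant cells, 9.44 and 9.40 with shEzh2.781 and 9.04 and 8.90 with shEzh2.556. The shEzh2.781 arrays lay above all the others, while premalignant and shEzh2.556 arrays overlapped. Ung rose by 0.48 with shEzh2.781 (SE 0.12, limma adjusted p = 0.0273), or 1.39-fold, and differed by 0.02 with shEzh2.556 (95% interval from -0.25 to 0.29). The hairpins differed by 0.45 (SE 0.12, adjusted p = 0.0389). Both calls were close to the threshold. The rise with shEzh2.781 did not pass without premalignant array 2 (0.36, adjusted p = 0.202) or either shEzh2.781 array (adjusted p = 0.117 and 0.0821), and the difference between hairpins did not pass after quantile normalization (0.32, adjusted p = 0.135) or without any 1 of the 4 lymphoma arrays (adjusted p = 0.0954 to 0.14). With all probe sets in the fit the adjusted p was 0.109 and 0.136. Over both hairpins Ung differed by 0.25 (SE 0.11, adjusted p = 0.153). Proliferation markers are given because Ung is known to rise in S phase. Their mean log2 levels were 11.87 and 11.83 in premalignant cells, 11.76 and 11.65 with shEzh2.781 and 11.51 and 11.57 with shEzh2.556. Of 11 such markers 3 fell and 0 rose in lymphomas by the limma test. With shEzh2.781 0 passed, and with shEzh2.556 4 fell and 0 rose. Their part in the Ung difference was not tested.

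Smug1, a second uracil glycosylase that also removes hydroxymethyluracil, had signals of 6.54 and 6.66, 6.64 and 6.65, and 6.68 and 6.66, below the array median on all 6 arrays. It differed by 0.06 between lymphomas and premalignant cells (SE 0.10, limma adjusted p = 0.769), with a 95% interval from -0.15 to 0.26. The intervals were -0.20 to 0.28 with shEzh2.781 and -0.17 to 0.31 with shEzh2.556. Premalignant and shEzh2.781 arrays overlapped, while both shEzh2.556 arrays lay narrowly above all the others. No detection calls were used.

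Neil1, which removes oxidised bases and opens the strand at the same site, fell in lymphomas. Its signal was 9.84 and 10.36 in premalignant cells, 9.30 and 9.34 with shEzh2.781 and 8.63 and 8.59 with shEzh2.556. The 3 groups did not overlap, each lymphoma pair was tight, and the premalignant arrays differed by more (SD 0.37, n = 2). Neil1 fell by 1.14 (SE 0.13, limma adjusted p = 0.000121), or 2.20-fold. This was more than the fall of Apobec1, but without premalignant array 2 the order turned (-0.87 for Neil1 and -0.95 for Apobec1). Neil1 fell by 0.78 with shEzh2.781 (adjusted p = 0.00642), which did not pass without premalignant array 2 (-0.51, adjusted p = 0.0513) or with all probe sets in the fit (adjusted p = 0.0771). With shEzh2.556 it fell by 1.49 (adjusted p = 4.48e-05), or 2.81-fold. The hairpins differed by 0.72 (SE 0.15, adjusted p = 0.0156). This difference did not pass after quantile normalization (0.57, adjusted p = 0.0761), with all probe sets in the fit (adjusted p = 0.119) or without either shEzh2.556 array (adjusted p = 0.0809 and 0.0742). Mean levels of the neutrophil markers and of the proliferation markers ran in the same order over the groups.

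The Neil1 window is printed because Neil1 differed both from premalignant cells and between hairpins. It spans chr9:57148256-57148555 on the minus strand of GRCm38.p6.
Neil1: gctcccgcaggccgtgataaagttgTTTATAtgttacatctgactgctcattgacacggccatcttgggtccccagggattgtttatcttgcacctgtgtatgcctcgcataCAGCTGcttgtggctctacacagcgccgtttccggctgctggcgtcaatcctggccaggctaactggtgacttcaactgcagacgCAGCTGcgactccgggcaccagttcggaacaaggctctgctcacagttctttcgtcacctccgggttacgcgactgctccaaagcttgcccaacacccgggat
CAGCTG matches lay at -138 to -133 and -53 to -48, and a TATAAA match, on the opposite strand, at -225 to -220. The window held 17 CpG dinucleotides, above the 5 of Apobec2 and the 9 of Apobec1. CAGCTG was thus in the windows of Apobec1, Apobec2 and Neil1, 1 of which rose and 2 of which fell. It was not in those of Ung, Smug1 and Apobec3, the last with 2 start sites in the table. Ung held GC box matches at -87 to -82 and -20 to -15. The first Apobec3 window held a match to the interferon response core at -140 to -131, letters that 3.44% of promoters hold. Neither E2F motif was in any of the 7 windows of the 6 genes, nor was CACGTG.

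**Figure D3:**
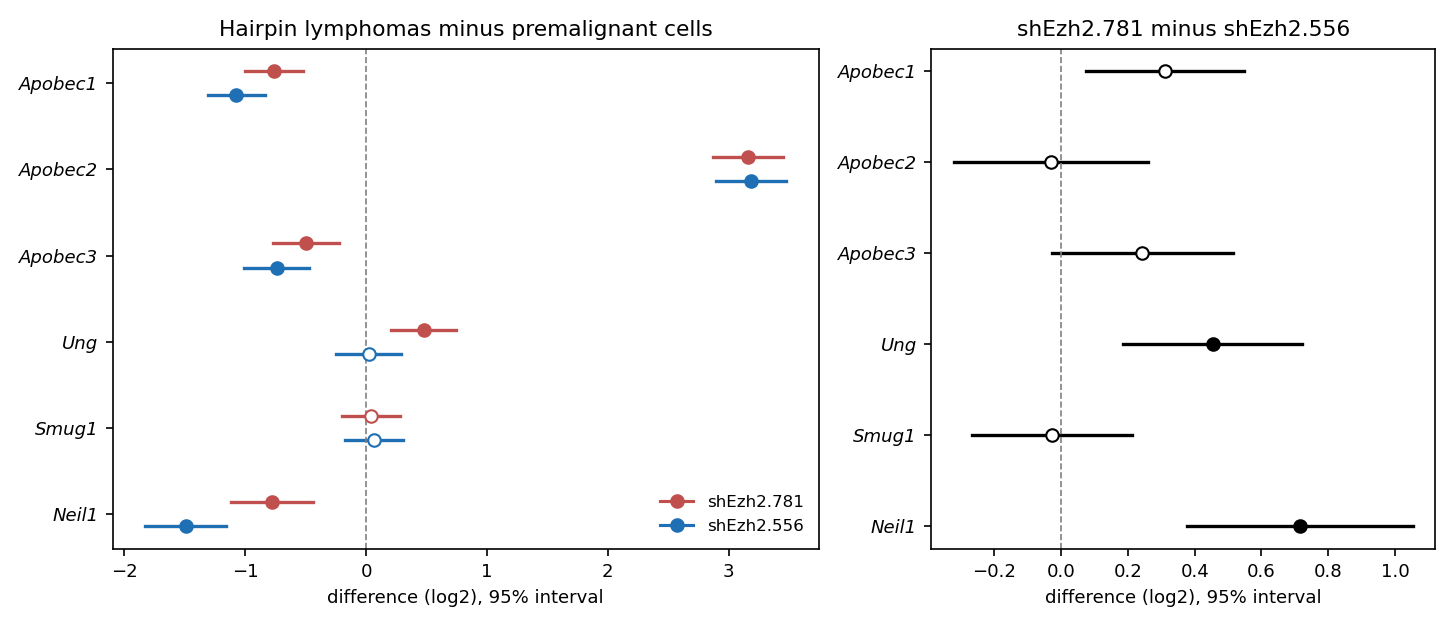
Difference in log2 signal with its 95% interval from the limma fit, for each hairpin against premalignant cells (left) and between hairpins (right); filled points passed at an adjusted p below 0.05. Apobec2 lies near 3.2 with either hairpin, and Ung and Neil1 are the 2 genes that passed between hairpins.

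Among the nearest genes to Neil1 in pattern, Rrm2b (0.075) encodes the ribonucleotide reductase subunit that supplies deoxynucleotides outside S phase, Gpam (0.103) an acyltransferase of glycerolipid synthesis and Rgs2 (0.117) a regulator of G protein signalling. Rrm2b was 9.55 and 9.91 in premalignant cells, 9.03 and 9.01 with shEzh2.781 and 8.42 and 8.28 with shEzh2.556. Rrm2b was chosen for this likeness, so it is again a description.

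Of the 7 measured glycosylases outside the 6 genes, 2 also fell. Over all 10 measured, 3 fell and 0 rose in lymphomas, where 9.61% of all genes fell and 5.60% rose. In the direction of a rise 2 had an unadjusted p below 0.05 by limma, and the median was -0.02. Mbd4, which removes thymine or uracil opposite guanine at methylated sites, fell by 0.63 (SE 0.11, adjusted p = 0.00173). Neil3, a glycosylase of proliferating cells, fell by 0.72 (SE 0.11, adjusted p = 0.000858). Mbd4 was 9.06 and 9.10 in premalignant cells and 8.27 to 8.56 in lymphomas. Neil3 was 10.73 and 10.67 and then 9.87 to 10.18. Both fell with each hairpin, and without any 1 of the 6 arrays 3 glycosylases still fell. One glycosylase rose with array medians subtracted.

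Of 14 genes measured for the later steps of base excision repair 1 rose and 1 fell, where 15.2% of all genes passed, with a median of -0.09. Polb, the gap-filling polymerase, fell by 0.42 (SE 0.12, adjusted p = 0.0353), and Poll, a related polymerase, rose by 0.38 (SE 0.11, adjusted p = 0.0398). No gene of the list rose when either premalignant array, the second shEzh2.781 array or the first shEzh2.556 array was left out, and none fell without premalignant array 1, shEzh2.556 array 1 or shEzh2.556 array 2. With quantile normalization or array medians subtracted none fell. Apex1, the endonuclease that acts after UNG, differed by 0.27 (SE 0.12, adjusted p = 0.19). The replicative ligase Lig1 fell by 0.38 with shEzh2.556 (adjusted p = 0.0322) and differed by -0.13 with shEzh2.781 (adjusted p = 0.593). It was 0.25 higher with shEzh2.781 than with shEzh2.556, which did not pass (limma adjusted p = 0.141).

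Of 13 genes of dUTP and deoxynucleotide supply, 2 fell and 0 rose (0 had an unadjusted p below 0.05 in the direction of a rise), with a median of 0.01. Rrm2b fell by 1.04 (SE 0.12, adjusted p = 8.03e-05) and Dck, the deoxycytidine kinase, by 0.69 (SE 0.09, adjusted p = 0.000399). Both were higher with shEzh2.781 than with shEzh2.556, by 0.67 (adjusted p = 0.0109) and 0.49 (adjusted p = 0.0192). Dut, which keeps uracil out of DNA by destroying dUTP, differed by -0.09 (SE 0.10, adjusted p = 0.648), at 10.38 and 10.23 in premalignant cells and 10.07 to 10.35 in lymphomas.

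Mismatch repair and translesion synthesis act on the uracil that is not excised, or on the site it leaves. Of 6 mismatch repair genes 1 fell and 0 rose (0 at an unadjusted p below 0.05 in the direction of a rise), with a median of -0.05. Msh3 fell by 0.49 (SE 0.12, adjusted p = 0.0188), and no gene of the list fell without premalignant array 1 or shEzh2.556 array 1. Msh6, a partner in recognising single mismatches, differed by -0.33 (SE 0.10, adjusted p = 0.0542). It fell by 0.56 with shEzh2.556 (adjusted p = 0.00672) and was 0.47 higher with shEzh2.781 than with shEzh2.556 (adjusted p = 0.0319). Of 11 translesion genes 0 passed the limma test in lymphomas, while 4 were lower at an unadjusted p below 0.05, with a median of -0.20. With shEzh2.556 Rev3l, the catalytic subunit of polymerase zeta, fell by 0.48 (adjusted p = 0.0338) and Primpol, a primase that restarts stalled forks, by 0.57 (adjusted p = 0.0252). Over both hairpins, 1 fell when the first shEzh2.781 array or the second shEzh2.556 array was left out. Polh, the polymerase of mutations at A and T bases, differed by -0.21 (SE 0.10, adjusted p = 0.179). Rev1, a deoxycytidyl transferase that fills in opposite abasic sites, was 0.63 higher with shEzh2.781 than with shEzh2.556 (SE 0.11, adjusted p = 0.005), and Primpol was 0.58 higher (adjusted p = 0.0372).

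Of 12 genes for the repair of switch region breaks, 3 fell and 0 rose (0 at an unadjusted p below 0.05 in the direction of a rise), with a median of -0.18. In lymphomas 9.61% of all genes fell and 5.60% rose. Lig4, the ligase of end joining, fell by 1.44 (SE 0.11, adjusted p = 4.03e-06), from 10.14 and 10.38 to 9.41 and 9.25 with shEzh2.781 and 8.31 and 8.31 with shEzh2.556. Xrcc6, which encodes the Ku70 subunit of the end-binding complex, fell by 0.55 (SE 0.11, adjusted p = 0.00588) and Mdc1, a scaffold at breaks, by 0.41 (SE 0.09, adjusted p = 0.012). The count of 3 was 1 without premalignant array 2. Of 18 germinal centre and switching genes, 6 fell and 1 rose, with a median of -0.15, and 2 fell and 0 rose without premalignant array 2. The same shares over all genes apply to this list. Batf, a factor required for switching, rose by 0.51 (SE 0.11, adjusted p = 0.00648). Irf4 fell by 0.64 (SE 0.11, adjusted p = 0.00147), Irf8 by 0.53 (SE 0.10, adjusted p = 0.00333) and Tcf3, which encodes E2A factors, by 0.48 (SE 0.10, adjusted p = 0.00598). Mybl1 fell by 0.71 (SE 0.13, limma adjusted p = 0.0027), the most among the germinal centre and switching genes, and Id3 by 0.46 (SE 0.12, adjusted p = 0.0199). Xrcc6, Mdc1, Irf4, Tcf3, Mybl1 and Id3 passed with shEzh2.556 and not with shEzh2.781. For Irf4 the differences were -1.01 and -0.27 (adjusted p = 0.218), and the hairpins differed (adjusted p = 0.00378). For Xrcc6 they were -0.88 and -0.21 (adjusted p = 0.396), and the hairpins differed as well (adjusted p = 0.00911). With shEzh2.781 Mybl1 was 0.83 higher than with shEzh2.556 (limma adjusted p = 0.00615) and Id3 0.53 higher (adjusted p = 0.0326). Mdc1 was 0.19 higher (adjusted p = 0.251) and Tcf3 0.25 higher (adjusted p = 0.161), and neither of these differences between hairpins passed. Id2, the remaining germinal centre and switching gene that fell (-0.58, SE 0.14, limma adjusted p = 0.0166), had another pattern. It passed with shEzh2.781 (-0.67, adjusted p = 0.0237) and not with shEzh2.556 (-0.50, adjusted p = 0.0573). Between hairpins Id2 differed by -0.16 (adjusted p = 0.508).

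**Figure D4:**
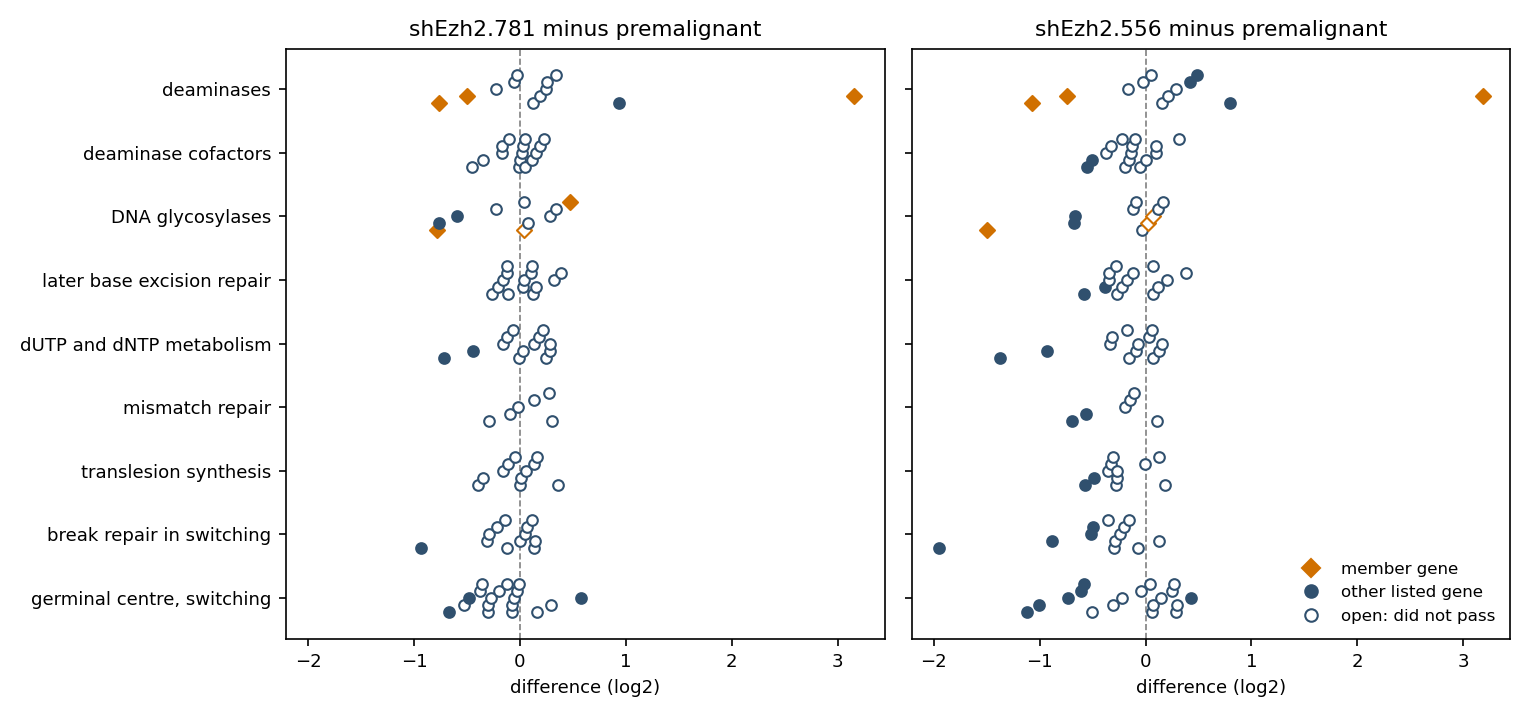
Difference in log2 signal against premalignant cells for each gene of 9 lists, with shEzh2.781 on the left and shEzh2.556 on the right; diamonds are the 6 genes described, and filled symbols passed at an adjusted p below 0.05. Apobec2 stands at the far right of both panels, near 3.2, and Lig4 is the lowest listed gene with shEzh2.556, at -1.95.

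Of the neighbours in the genome, counted as the 3 nearest measured protein-coding genes on each side, 3 of 36 passed higher and 5 lower in lymphomas, where 5.60% and 9.61% of all genes did. Beside Apobec1, which fell, Phc1 of polycomb complex 1 differed by -0.53 (SE 0.10, adjusted p = 0.00314) and the other 5 did not pass. Beside Apobec3 none passed, the nearest being Sun2 at -0.30 (SE 0.10, adjusted p = 0.0775). Beside Neil1, Ptpn9 differed by 0.55 (SE 0.12, adjusted p = 0.00653), Man2c1 by 0.35 (SE 0.10, adjusted p = 0.0328) and Sin3a by -0.33 (SE 0.10, adjusted p = 0.04). Beside Ung, Acacb rose by 0.66 (SE 0.10, adjusted p = 0.000962). None of the 36 changed as much as Apobec2 did, with differences from -1.06 to 0.66.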

How the data were processed

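The authors deposited 1 normalized log2 value per probe set for 6 Mouse Gene 1.0 ST arrays. Their range of 2.3 to 14.22 was read as a log2 scale. How the arrays were corrected, normalized and summarized was not given in the sources used here. Of 35512 probe sets, the 21789 with exactly 1 annotated symbol were used, and 1621 with several and 12102 without any were left out. The probe set with the highest mean was taken for each gene, without a filter on low signal, which gave 19938 genes.

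One limma model (limma 3.58.1, R 4.3.3) covered all groups (without intercept or covariates, 3 residual and 8.51 prior degrees of freedom) and adjusted by Benjamini-Hochberg over all genes. The fit was tested on simulated data. The genes, gene lists and tests were chosen with earlier results of these data known, and motifs and neighbours after the members' values were seen. Named were the 6 genes, Ezh2, up to 6 passing genes per list (with Id2 in addition) and set genes such as Dut and Polh. The 3 nearest genes in pattern were named where group means spanned at least 1 log2 unit. Promoters are from RefSeq (GRCm38.p6) and all 6 genes matched. Alternatives were quantile normalization, median subtraction, other probe set choices, variance priors and groupings, a replicate block and leaving out each array. Fitting all probe sets was added after the data were seen. The number of arrays limits the precision. Python 3.11.15 was used for tables (numpy 2.4.6, pandas 2.3.3) and plots (matplotlib 3.10.9).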

Additional observations from a re-analysis of the deposited data

Results flagged for a closer look

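The change against premalignant cells differed between hairpins for 2 of the 6 genes, by the test of the difference itself. Ung was 0.45 higher with shEzh2.781 than with shEzh2.556 (limma adjusted p = 0.0389), and Neil1 was 0.72 higher (adjusted p = 0.0156). In both cases 2 of 2 shEzh2.781 arrays lay above 2 of 2 shEzh2.556 arrays, a lack of overlap that 5 of the 6 genes and 65.2% of all genes showed in 1 direction or the other.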

How the results depend on the processing

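Each of the 6 genes was refitted in the 4 comparisons under up to 14 alternatives, and 308 of 332 values kept their direction, where called, and their side of the threshold. In lymphomas against premalignant cells all 6 did so under every alternative run, with Apobec2 between 2.99 and 3.36, Apobec1 between -0.95 and -0.85, Apobec3 between -0.81 and -0.55 and Neil1 between -1.40 and -0.87. Smug1 was not in the fit without dim genes.

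After quantile normalization the difference between hairpins was 0.32 for Ung and 0.57 for Neil1, and neither passed. With array medians subtracted the Apobec3 difference with shEzh2.781 was -0.38 and did not pass, while Apobec1 passed between hairpins at 0.42, as it did with a trended, robust prior at 0.31. With all probe sets in the fit, which was added after the data were seen, the following did not pass: for shEzh2.781 against premalignant cells Apobec3 (-0.50), Ung (0.48) and Neil1 (-0.78), and between hairpins Ung (0.45) and Neil1 (0.72). That fit called 1247 probe sets for shEzh2.781 and 317 between hairpins. With the 4 lymphomas as one group 1091 genes passed in place of 3033. The cause of these changes was not tested.

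With 1 array left out, counts of passing genes ranged from 1721 to 2833 for all lymphomas (main 3033), 1103 to 2048 for shEzh2.781 (2161), 1949 to 3669 for shEzh2.556 (3635) and 718 to 2085 between hairpins (2000). In some of these fits calls were lost for shEzh2.781 by Apobec3, Ung and Neil1, and between hairpins by Ung and Neil1. The ranges that follow cover every fit with 1 array left out, whether the call was kept or lost. For shEzh2.781 they were -0.52 to -0.48 (Apobec3), 0.36 to 0.60 (Ung) and -1.04 to -0.51 (Neil1). Between hairpins they were 0.38 to 0.53 (Ung) and 0.69 to 0.74 (Neil1).

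The labels number arrays 1 and 2 in each group. Deviations of same-numbered arrays correlated at -0.091, -0.124 and 0.064 between groups, so the numbers were not taken as pairs. With the replicate number as a block 2889 genes passed for all lymphomas, 2078 for shEzh2.781, 3371 for shEzh2.556 and 1783 between hairpins, and no call of the 6 genes changed.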
